A study of Mus musculus with 12 samples.

Results

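The genes of bile acid synthesis and transport described here are 10 hepatocyte genes, chosen by symbol from the 22618 genes of a liver exon count table. They are the hydroxylases Cyp7a1, Cyp8b1, Cyp27a1 and Cyp7b1, the conjugating enzymes Slc27a5 and Baat, the uptake carrier Slc10a1 and the canalicular exporters Abcb11, Abcc2 and Abcb4. All 10 were in the table and all 10 passed the filter on low counts that left 17142 genes to test. Each was covered by 1718 to 61223 reads in every library, so counting error was small beside the spread between libraries.

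All libraries came from the liver of male C57BL/6j mice of 12 to 16 weeks that lacked both Cry1 and Cry2 (Cry1/2 DKO), were fed at night and had a conventional gut flora. Cry1 and Cry2 encode the cryptochromes, the repressors that close the feedback loop of the circadian clock. Livers were sampled at zeitgeber times (ZT) 2, 6, 10, 14, 18 and 22, counted in hours within the daily light cycle, with 2 libraries at each of the 6 times. Night libraries are those of ZT14, ZT18 and ZT22, and day libraries those of ZT02, ZT06 and ZT10. Every group carried the same deletions and the same feeding schedule, and wild-type livers were not analysed here, so no value below is an effect of the knockout. Nothing in the labels says whether the 2 libraries of a time came from separate mice, so a p-value here reflects how far these libraries differ, which may be technical.

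Bile acids are made from cholesterol in hepatocytes and act as detergents for dietary fat. The classic route starts with 7-alpha-hydroxylation of cholesterol, while the alternative route starts with oxidation of the side chain. Bile acids return from the gut in portal blood, are taken up again by hepatocytes and are pumped into the canaliculi, and the nuclear receptor FXR and the gut hormone FGF15 restrain their synthesis when they are plentiful.

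Depth was 34715506 to 46074052 counts per library. Levels are given as CPM (the count of a gene relative to all counts of its library), scaled with TMM factors that correct for library composition. The 2 libraries of each time differed by far more than sampling noise, with a chi-square per degree of freedom of 15.5 at ZT18 to 92.2 at ZT10. Over 9876 genes of at least 5 CPM, centred on each gene's mean, the 2 ZT02 libraries had r = 0.21 with each other and the 2 ZT06 libraries r = 0.16. Likeness was greater between the first replicates of ZT02 and ZT06 (r = 0.47) and between their second replicates (r = 0.59). These are correlations across genes, which are not independent replicates, and results are also given without a pair of these libraries where that changes them. The pairs left out were ZT02 replicate 2 with ZT06 replicate 1, and ZT02 replicate 1 with ZT06 replicate 2. Reads in Cry1 (5.71 to 13.6 CPM) and Cry2 (12.4 to 22.8 CPM) remained in all 12 libraries. These gene totals also cover exons outside a deleted stretch and do not check the genotype. Summed over 8 hepatocyte markers, the level was 88158 to 98133 CPM in night libraries and 95046 to 123659 CPM in day libraries.

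Sequence before the annotated start was taken from RefSeq promoter windows (GRCm38.p6), which matched 6 of the 10 genes. Stretches of 150 bases are shown for Cyp8b1, the gene of the set called in both tests over time, and for Abcb11, the textbook target of FXR. Both lie on the minus strand and are written 5′ to 3′, ending at the base before the start. Capitals mark matches to 2 motifs in Cyp8b1, CAAAGTCCA (bound by HNF4A) and TATAAA (the TATA box), and in Abcb11 an inverted repeat of AGGNCA with 1 base between the repeats (bound by FXR).
Cyp8b1, chr9:121916306-121916455: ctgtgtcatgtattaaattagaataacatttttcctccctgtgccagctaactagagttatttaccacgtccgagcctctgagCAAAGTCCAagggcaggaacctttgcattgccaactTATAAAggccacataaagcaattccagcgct
Abcb11, chr2:69342617-69342766: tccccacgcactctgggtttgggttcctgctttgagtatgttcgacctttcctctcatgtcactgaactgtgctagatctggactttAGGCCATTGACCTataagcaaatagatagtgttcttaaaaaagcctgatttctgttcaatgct
The HNF4A motif began 67 bases and the TATA box 31 bases before the start of Cyp8b1, and the inverted repeat began 63 bases before that of Abcb11. The last 6 bases of the repeat also match TGACCT, the reverse complement of the half-site AGGTCA. Both strands of all 32851 windows of 300 bases were searched. CAAAGTCCA was found in 0.475% of them, TATAAA in 13.6%, the inverted repeat in 0.0883% and AGGTCA in 16.3%. AGGTCA was also found 49 bases before the start of Abcc2 and 87 bases before 1 of the 2 annotated starts of Slc10a1, and TATAAA, on the other strand, 128 bases before the other. In these windows of the 6 genes no match was found to CACGTG, the E-box bound by the clock activators (7.15% of all windows), or to TTANGTAA, the D-box bound by DBP (2.32%). A match is a description of the letters only.

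The 10 genes differed widely in level. Per kilobase of exon (GENCODE M21 union of exons), Slc27a5 was the most abundant at 512 ± 62.7 CPM per kb (SD, n = 12). Cyp8b1 (211 ± 84.9) and Cyp27a1 (196 ± 15.04 CPM per kb) followed, and their ranges overlapped. Slc10a1, Cyp7b1, Baat and Abcb11 averaged 160, 146, 135 and 121 CPM per kb, and neighbours in this order overlapped. At the low end were Abcc2 (42.0 ± 6.24), Cyp7a1 (36.4 ± 27.3) and Abcb4 (27.3 ± 4.86 CPM per kb), which also overlapped.

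Their spread over the 12 libraries differed as much. Cyp7b1 and Cyp7a1 had SDs of 0.99 and 0.87 in log2 CPM, at percentiles 98.6 and 97.4 of all tested genes. Cyp27a1 and Baat both had an SD of 0.11, at percentiles 6.78 and 7.68. The median over all tested genes was 0.27, and over the 9876 genes of at least 5 CPM it was 0.19. The enzymes of 7-alpha-hydroxylation varied most, and the side-chain oxidase and the conjugating transferase least.

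**Figure D1:**
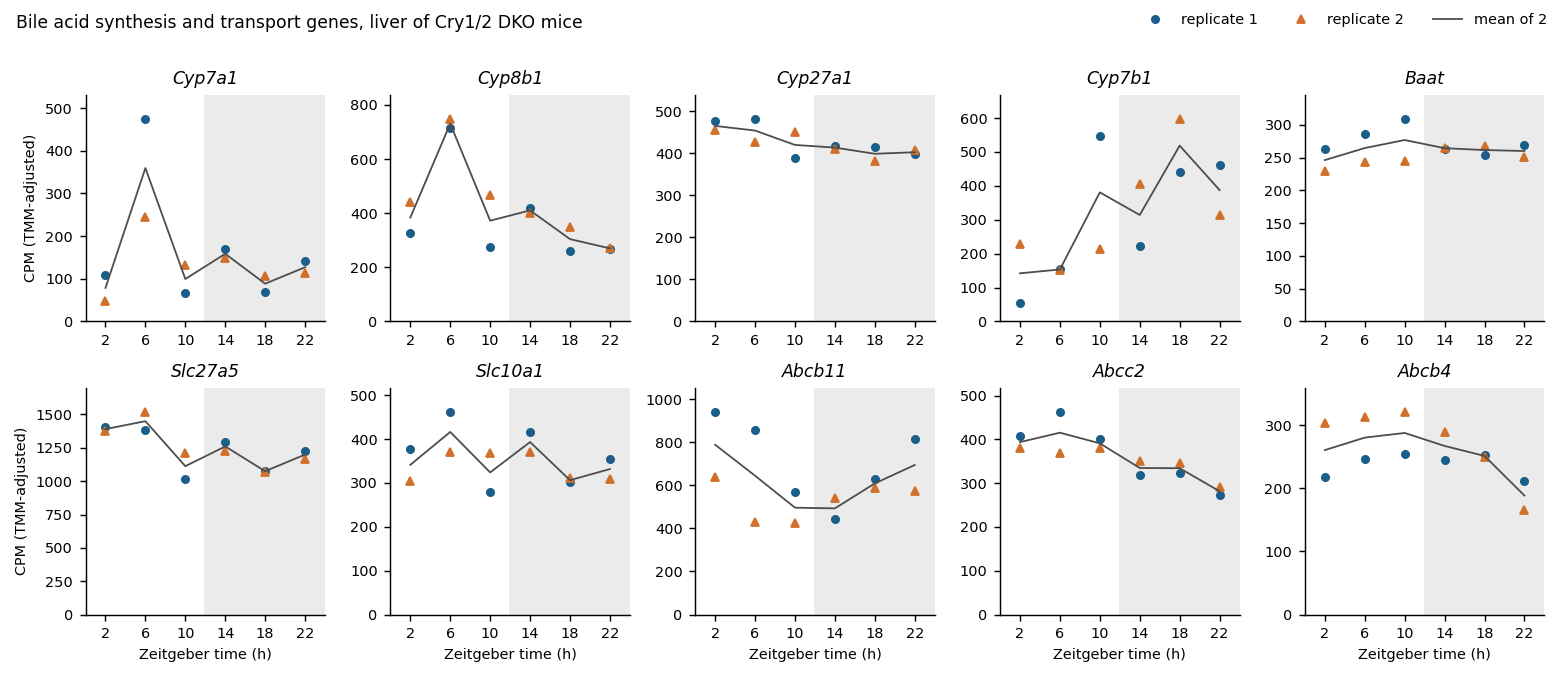
TMM-adjusted CPM of the 10 genes (vertical axes, from 0) against zeitgeber time in hours, with circles for replicate 1, triangles for replicate 2, a line through the mean of 2 libraries and grey for the night. Cyp7a1 and Cyp8b1 stand highest at ZT06, Cyp7b1 is lowest at ZT02 and ZT06, and Baat and Cyp27a1 stay nearly level.

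The first question was whether any of these genes followed the time of day. In a test of all differences among the 6 times, edgeR's quasi-likelihood test with Benjamini-Hochberg adjustment over 17142 genes called 2 of the 10, Cyp7a1 and Cyp8b1 (adjusted p under 0.05), where 4.82% of all tested genes were called. In a test of a 24 h cosine it called 1 of the 10, Cyp8b1, where 12.0% of all tested genes were called. The share called by the 24 h test was thus near that of all genes. The median range fitted by edgeR, peak over trough, was 1.38-fold for the 10 genes and 1.31-fold for all tested genes.

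Cyp7a1 (chr4:6265612-6275633, minus strand, 6 exon blocks) encodes cholesterol 7-alpha-hydroxylase, the rate-limiting enzyme of the classic route. Its levels were 108 and 48.9 CPM at ZT02, 474 and 245 CPM at ZT06, 67.3 and 132 CPM at ZT10, 169 and 148 CPM at ZT14, 69.4 and 108 CPM at ZT18 and 141 and 113 CPM at ZT22. Both ZT06 libraries stood above the 10 others, and the ZT14 libraries came next, above both libraries of every other remaining time. ZT22, ZT10, ZT18 and ZT02 followed in the order of their means, and neighbours among these 4 overlapped. The mean at ZT06 was 4.57 times that at ZT02, against a largest ratio between 2 libraries of one time of 2.22, at ZT02.

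The 2 tests over time differed for Cyp7a1. The test of any time difference called it (edgeR adjusted p = 0.0417), while the 24 h test did not (edgeR adjusted p = 0.24, least-squares range 1.86-fold, with a 95% interval whose lower end was at 1 and upper end at 5.84). The call of a time difference rested on few libraries. It was lost in 7 of 12 fits that left out 1 library, those without ZT06 replicate 1 or any night library (edgeR adjusted p up to 0.16), and without ZT02 replicate 2 and ZT06 replicate 1 together (edgeR adjusted p = 0.144), and held without the other pair (edgeR adjusted p = 0.0168). It was also lost with limma-voom (adjusted p = 0.063).

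Cyp8b1 (chr9:121914356-121916305, minus strand, 1 exon) encodes sterol 12-alpha-hydroxylase, which directs intermediates towards cholic acid. It measured 328 and 440 CPM at ZT02, 714 and 748 CPM at ZT06, 276 and 469 CPM at ZT10, 421 and 400 CPM at ZT14, 259 and 349 CPM at ZT18 and 269 and 272 CPM at ZT22. The 2 ZT06 libraries stood far above the 10 others, and the remaining times overlapped their neighbours in order. The least-squares 24 h fit gave a range of 2.00-fold (95% interval 1.19 to 3.37) with a peak at ZT 7.18 ± 1.27 h (SE).

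Both tests over time called Cyp8b1 (edgeR adjusted p = 0.0415 for the 24 h cosine and 0.0312 for any difference). Night libraries had 259, 310 and 421 CPM as lowest, median and highest, and day libraries 276, 454 and 748 CPM. The groups overlapped, with 3 of 6 night libraries under the lowest day library. Night was lower, with a difference of −0.54 ± 0.13 on the log2 scale (SE, edgeR adjusted p = 0.0303). By time means, ZT14 (410 CPM) was under ZT06 (731 CPM) but above the day times ZT02 (384 CPM) and ZT10 (372 CPM). The means at ZT18 (304 CPM) and ZT22 (270 CPM) were under those of all day times.

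These calls also depended on single libraries. The 24 h call held in 3 of 12 fits without 1 library, those without ZT02 replicate 1, ZT10 replicate 1 or ZT18 replicate 2, and in the others the edgeR adjusted p reached 0.106. It was lost with limma-voom (adjusted p = 0.065). The call of any difference held in 4 of 12, those without a ZT02 or a ZT10 library, with adjusted p up to 0.0915 by edgeR. The night call held in 5 of 12, those without ZT02 replicate 1, ZT06 replicate 1, either ZT10 library or ZT18 replicate 2, with adjusted p up to 0.0954 by edgeR. Without ZT02 replicate 2 and ZT06 replicate 1 together, the adjusted p by edgeR was 0.126 for the cosine, 0.0795 for any difference and 0.0967 for night. For the other pair these values were 0.125, 0.0862 and 0.0428, so of the 3 calls that of night was kept. In bulk liver, fewer cells of a type and less RNA per cell cannot be told apart.

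Cyp27a1 (chr1:74713574-74737892, plus strand) encodes the mitochondrial sterol 27-hydroxylase that opens the alternative route. It had 383, 410 and 417 CPM as lowest, median and highest in night libraries, and 390, 453 and 482 CPM in day libraries. All 12 libraries lay within a 1.26-fold span. The night difference was −0.14 ± 0.07 on the log2 scale (SE), and no test called it (edgeR adjusted p = 0.24 for the 24 h cosine and 0.22 for night minus day).

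Cyp7b1 (chr3:18071950-18243338, minus strand) encodes oxysterol 7-alpha-hydroxylase of the alternative route. Its levels were 54.4 and 230 CPM at ZT02, 156 and 151 CPM at ZT06, 548 and 214 CPM at ZT10, 223 and 405 CPM at ZT14, 441 and 597 CPM at ZT18 and 462 and 313 CPM at ZT22. Of the day libraries, 5 lay at 230 CPM or under, and ZT10 replicate 1 stood among the highest of all 12. The 2 ZT02 libraries differed 4.23-fold, more than the 3.65-fold ratio of the highest to the lowest time mean.

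Night libraries of Cyp7b1 averaged 407 ± 129 CPM and day libraries 225 ± 169 CPM (SD, n = 6 each). The difference of 0.98 ± 0.33 on the log2 scale (SE) was the largest of the 10 and the only positive one, and it was not called (edgeR adjusted p = 0.0904). The 24 h range was 3.58-fold (least squares, 95% interval 1.30 to 9.89) with a peak at ZT 16.4 ± 1.34 h (SE), also not called (edgeR adjusted p = 0.103). Without ZT10 replicate 1 the 24 h test called it (edgeR adjusted p = 0.03). The night test called it without ZT10 replicate 1 or without ZT02 replicate 2 (lowest edgeR adjusted p over all alternatives 0.019), and without ZT02 replicate 2 and ZT06 replicate 1 together (edgeR adjusted p = 0.032).

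The 2 7-alpha-hydroxylases were set side by side per kilobase of exon, and at no time did Cyp7a1 exceed Cyp7b1 in both replicates. The ratio of Cyp7a1 to Cyp7b1 was above 1 in 2 libraries, ZT06 replicate 1 (1.58) and ZT02 replicate 1 (1.04). It was 0.843 in ZT06 replicate 2 and between 0.0638, in ZT10 replicate 1, and 0.392, in ZT14 replicate 1, in the 9 others. In the 6 night libraries Cyp7b1 exceeded Cyp7a1 in every case. Where the ratio crosses 1 depends on the exon lengths used. By CPM alone, Cyp7a1 was the higher in ZT06 replicate 2 as well (245 against 151 CPM).

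**Figure D2:**
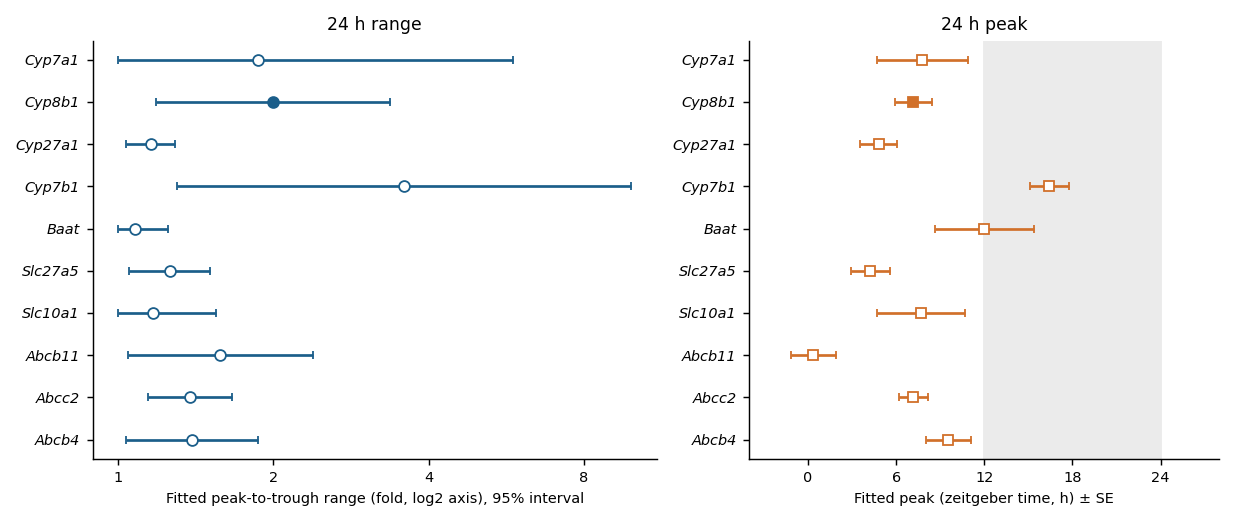
Least-squares 24 h fits to log2 CPM of the 10 genes. Left, peak-to-trough range (fold, log2 axis) with its 95% interval, cut at 1; right, peak time in zeitgeber hours ± SE with the night in grey; filled symbols mark the gene called by edgeR. Cyp8b1 is filled, and the interval of Cyp7b1 reaches from 1.30 to 9.89.

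Conjugation joins bile acids to taurine or glycine. Slc27a5 (chr7:12988346-12998192, minus strand), the bile acid-CoA ligase that activates them, had 1406 and 1375 CPM at ZT02, 1382 and 1518 CPM at ZT06, 1016 and 1209 CPM at ZT10, 1296 and 1225 CPM at ZT14, 1077 and 1072 CPM at ZT18 and 1230 and 1169 CPM at ZT22. The 4 libraries of ZT02 and ZT06 stood above the 8 others. The 24 h range was 1.26-fold (least squares, 95% interval 1.05 to 1.51), and it was not called (edgeR adjusted p = 0.16, night minus day −0.16 ± 0.07 on the log2 scale, SE).

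Baat (chr4:49489422-49506557, minus strand), the transferase that adds the amino acid, had the smallest fitted 24 h range of the set, 1.08-fold (least squares). Its libraries ran from 251 to 269 CPM at night and from 229 to 309 CPM by day. Its night difference was −0.001 ± 0.080 on the log2 scale (SE, edgeR adjusted p = 0.994).

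Slc10a1 (chr12:80953183-80968705, minus strand) encodes NTCP, the sodium-dependent carrier that takes conjugated bile acids up from blood. It measured 302, 333 and 417 CPM as lowest, median and highest in night libraries and 280, 370 and 462 CPM in day libraries. The groups overlapped over most of their ranges. No test called it (edgeR adjusted p = 0.498 for the 24 h cosine, 0.347 for any time difference and 0.703 for night minus day).

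Abcb11 (chr2:69238282-69342616, minus strand) encodes BSEP, the export pump for bile salts. Its levels were 940 and 637 CPM at ZT02, 858 and 431 CPM at ZT06, 568 and 425 CPM at ZT10, 445 and 541 CPM at ZT14, 630 and 588 CPM at ZT18 and 817 and 572 CPM at ZT22. Replicate 1 was higher at 5 of 6 times, and the 2 ZT06 libraries differed 1.99-fold, more than the 1.60-fold ratio between the highest and lowest time means. The 24 h fit peaked at ZT 0.345 ± 1.53 h (SE), with a range of 1.58-fold (least squares, 95% interval 1.04 to 2.39; edgeR adjusted p = 0.119). Antisense gene Gm13613 overlaps it by 136 bp and pseudogene Gm13614 by 19 bp. How strand was handled in the counting is not given in the sources used here, so a share of these reads is uncertain.

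Abcc2 (chr19:43782192-43840740, plus strand) encodes MRP2, the canalicular exporter of bilirubin glucuronides and other organic anions. It had 318 and 351 CPM at ZT14, 324 and 345 CPM at ZT18 and 272 and 291 CPM at ZT22, against 407 and 381 CPM at ZT02, 462 and 369 CPM at ZT06 and 402 and 380 CPM at ZT10. Every night library lay under every day library, 272 to 351 CPM against 369 to 462 CPM, which was the case for 1 of the 10 genes. Night was lower, with a difference of −0.34 ± 0.07 on the log2 scale (SE, edgeR adjusted p = 0.0201).

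The night call of Abcc2 held in 8 of 12 fits without 1 library and was lost without ZT14 replicate 1, ZT18 replicate 1 or 2, or ZT22 replicate 1, where the edgeR adjusted p reached 0.0714. It held without either pair of ZT02 and ZT06 libraries. Its 24 h test lay at the threshold. The range was 1.38-fold with a peak at ZT 7.16 ± 0.994 h (SE; edgeR adjusted p = 0.0536), and it was called with total counts in place of TMM (edgeR adjusted p = 0.0408), without ZT06 replicate 2, with DESeq2 (adjusted p = 0.0144) and with limma-voom (adjusted p = 0.0498).

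Abcb4 (chr5:8893717-8959231, plus strand) encodes MDR2, the flippase that brings phosphatidylcholine into bile. It measured 165, 248 and 290 CPM as lowest, median and highest in night libraries and 217, 279 and 321 CPM in day libraries. The lowest level was in the 2 ZT22 libraries (212 and 165 CPM), which were both under every other library. The night difference was −0.24 ± 0.11 on the log2 scale (SE, edgeR adjusted p = 0.2), and no test called it.

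Over the set, night minus day was negative for 9 of the 10 genes, with Baat at −0.001, and for 8357 of all 17142 tested genes. The median was −0.15 on the log2 scale for the 10 genes and 0.01 over all tested genes. Of the 10, 2 were called lower at night, Cyp8b1 and Abcc2, where 4.89% of all tested genes were called lower. None was called higher, where 4.80% of all tested genes were called higher. DESeq2 and limma-voom also each called 2 of the 10, and 3 had an unadjusted p under 0.05 in edgeR. Night and day ranges of the marker sums of liver zones overlapped, with the night range lying lower in both zones. The 8 pericentral markers summed to 5867 to 7506 CPM in night libraries and 6620 to 9381 CPM in day libraries, and the 8 periportal markers to 3414 to 5567 CPM and 4690 to 8292 CPM. Their part in the result was not tested. The 8 cholangiocyte markers summed to 40.9 to 74.4 CPM at night and 44.1 to 76.6 CPM by day.

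**Figure D3:**
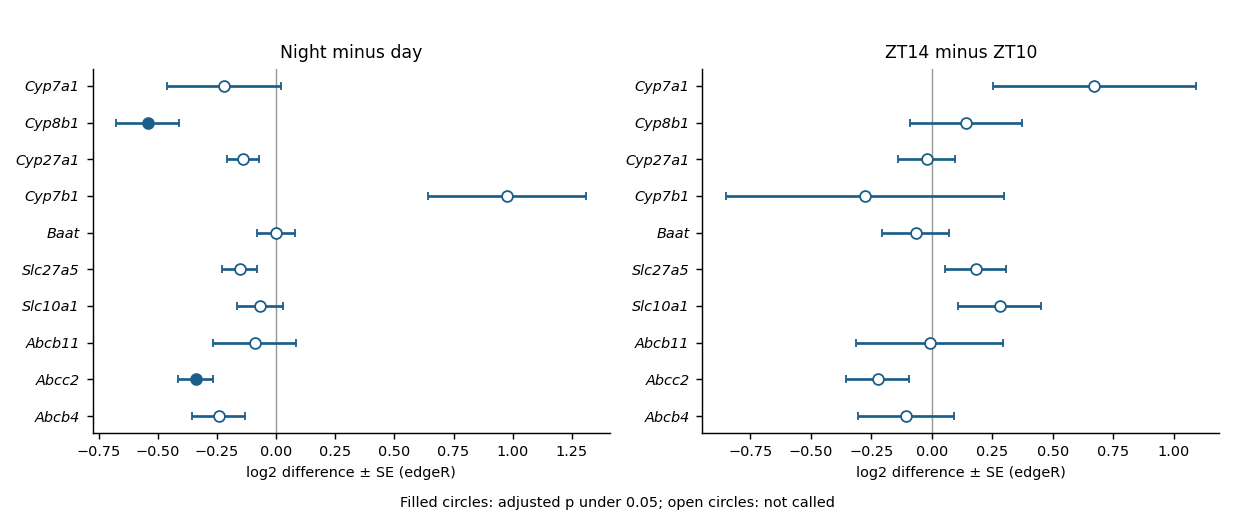
Log2 differences ± SE from edgeR for the 10 genes, night minus day at left and ZT14 minus ZT10 at right, with filled circles at an adjusted p under 0.05. Cyp8b1 (−0.54) and Abcc2 (−0.34) are filled at left, Cyp7b1 (0.98) is open, and no circle is filled at right.

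The step from ZT10 to ZT14, across the change from light to dark and the start of feeding, was tested on its own. Here edgeR called 0 of the 10 genes, where 1.23% of all tested genes were called. DESeq2 and limma-voom each called 0, and 0 had an unadjusted p under 0.05 in edgeR. Cyp7a1 had the largest difference, 0.67 ± 0.42 on the log2 scale (SE, edgeR adjusted p = 0.476), with 169 and 148 CPM at ZT14 against 67.3 and 132 CPM at ZT10. These 2 groups of 2 did not overlap.

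Some of the genes varied together from library to library. Over the 45 pairs, correlations of log2 CPM across 12 libraries were tested with 100000 permutations, two-sided, and adjusted over the pairs. After adjustment, 3 pairs passed. Cyp7a1 and Slc10a1 had r = 0.86 and rho = 0.84 (permutation p = 3e-04 and adjusted p = 0.00675 for r). Leaving out the 2 libraries farthest from the median of Cyp7a1 gave r = 0.78, and r was 0.86 within night and 0.90 within day libraries (n = 6 each).

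Cyp27a1 and Cyp7b1, consecutive enzymes of the alternative route, went in opposite directions, with r = −0.85 and rho = −0.89 (permutation p = 2.1e-04 and adjusted p = 0.00675 for r). The value was −0.80 without the 2 farthest libraries, −0.75 within night and −0.76 within day libraries. Cyp27a1 spanned 1.26-fold over the 12 libraries, against 11.0-fold for Cyp7b1. Total counts in place of TMM moved log2 CPM of a library by −0.08 to 0.06, beside an SD of 0.11 for Cyp27a1. The correlation was not computed with that scaling, so whether the pair would still pass there was not tested. Cyp7b1 and Slc27a5 were also opposed, with r = −0.80 and rho = −0.84 (permutation p = 0.00156 and adjusted p = 0.0234 for r). That value was −0.85 without the 2 farthest libraries, −0.71 within night and −0.75 within day. Slc27a5 had an SD of 0.18 in log2 CPM, and its correlation with Cyp7b1 was not computed with total counts either. Without the 4 libraries of ZT02 and ZT06 the 3 values of r were 0.90, −0.86 and −0.72 (n = 8). The permutations exchanged all 12 libraries freely, although these share 6 times and some are alike by replicate number. A small p here therefore does not separate a shared time course from variation between libraries. The pairs also share genes, so these relations are not independent of each other.

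**Figure D4:**
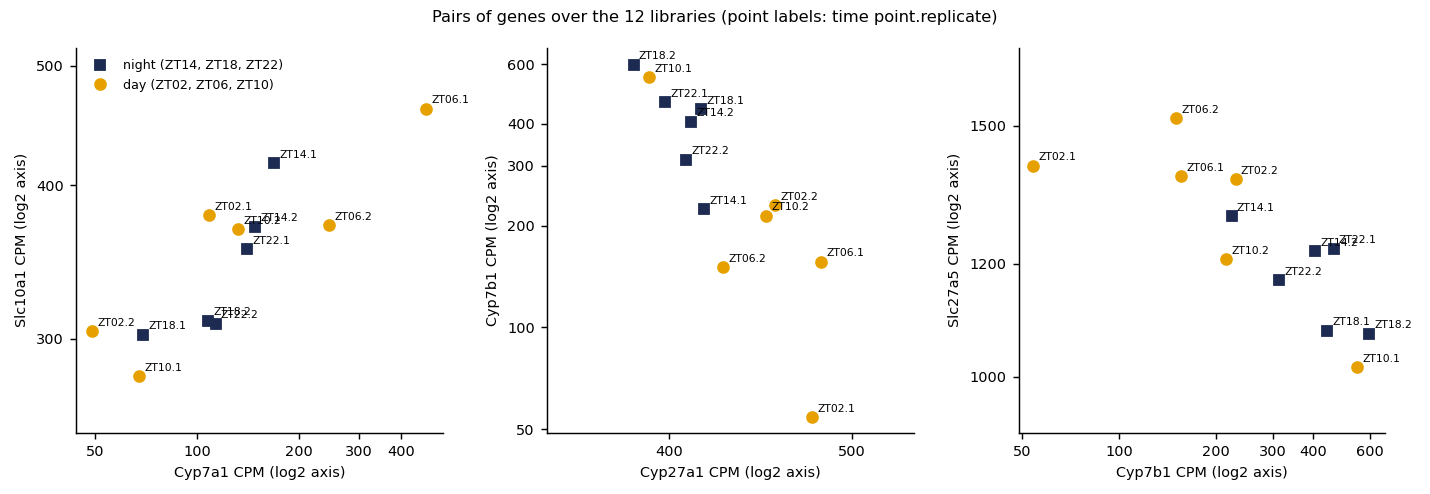
CPM of 3 gene pairs in the 12 libraries (both axes log2), with squares for night and circles for day libraries, each labelled by time and replicate. Slc10a1 rises with Cyp7a1 (r = 0.86), while Cyp7b1 falls with Cyp27a1 (r = −0.85) and Slc27a5 with Cyp7b1 (r = −0.80).

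Among all genes of at least 5 CPM, the 5 most like Cyp7a1 by Pearson's r of log2 CPM over 12 libraries were Slc10a1 (0.86), St7 (0.86), Gpt2 (0.85), Golim4 (0.84) and Fbp1 (0.84). Gpt2 encodes a mitochondrial alanine aminotransferase and Fbp1 the gluconeogenic fructose-1,6-bisphosphatase. None of the 5 was called in the 24 h test (lowest edgeR adjusted p = 0.179, for Gpt2).

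Of 16 further enzymes of bile acid synthesis, 15 were tested and 1 was called in the 24 h test, Hsd3b7, where 12.0% of all tested genes were called. The median range fitted by edgeR was 1.38-fold over the 15. It encodes the 3-beta-hydroxysteroid dehydrogenase that follows 7-alpha-hydroxylation in both routes. Its levels were 403 and 450 CPM at ZT02, 379 and 369 CPM at ZT06, 339 and 224 CPM at ZT10, 243 and 315 CPM at ZT14, 319 and 364 CPM at ZT18 and 362 and 403 CPM at ZT22. The lowest library was ZT10 replicate 2, and the ZT02 libraries, with ZT22 replicate 2, were the highest. The range was 1.57-fold (least squares, 95% interval 1.23 to 2.00) with a peak at ZT 0.831 ± 0.923 h (SE; edgeR adjusted p = 0.0327). The call was lost without ZT02 replicate 1 or 2, ZT14 replicate 1, ZT18 replicate 1 or ZT22 replicate 2, where the edgeR adjusted p reached 0.0784, and without either pair of ZT02 and ZT06 libraries (edgeR adjusted p = 0.0886 and 0.0835). Ch25h was under the filter. No further enzyme was called in the test of any time difference or at night.

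Of 15 further bile acid and canalicular transporters, 14 were in the table and tested, with a median range fitted by edgeR of 1.44-fold. The 24 h test called 1, near the 12.0% of all tested genes. Atp8b1, the canalicular aminophospholipid flippase, had 71.5 and 59.6 CPM at ZT02, 59.0 and 49.6 CPM at ZT06, 72.6 and 50.6 CPM at ZT10, 58.7 and 74.5 CPM at ZT14, 89.4 and 84.8 CPM at ZT18 and 74.8 and 83.9 CPM at ZT22. Both ZT18 libraries stood above all others. Its peak at ZT 19.3 ± 0.928 h (SE) was in the night, with a range of 1.55-fold (least squares, 95% interval 1.22 to 1.97; edgeR adjusted p = 0.0306). The call was lost without ZT06 replicate 2, ZT10 replicate 2, ZT18 replicate 1 or 2, or ZT22 replicate 2, where the edgeR adjusted p reached 0.0808, and without either pair of ZT02 and ZT06 libraries (edgeR adjusted p = 0.0716 and 0.114). Slc51b (listed as Ostb), a subunit of the basolateral exporter OST, averaged 0.369 CPM. Slc10a2, the apical carrier of ileum and bile ducts, averaged 9.21 CPM.

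Of the 23 regulators of bile acid metabolism listed, 21 genes were tested in 22 rows, since Mafg has 2 rows, and 6 rows were called in the 24 h test, where 12.0% of all tested genes were called. They were Nr1i3, Hnf4a, Ppara, Klb, Nr1h4 and Dbp. At night 5 were lower (Nr1i3, Ppara, Ppargc1a, Klb and Dbp) and 0 were higher in edgeR, where 4.89% of all tested genes were called lower and 4.80% higher, with a median difference of −0.08 on the log2 scale over the 22 rows. Vdr and Gpbar1 were under the filter.

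Nr1h4 encodes FXR, the bile acid receptor. It measured 146 and 126 CPM at ZT02, 153 and 167 CPM at ZT06, 138 and 144 CPM at ZT10, 136 and 146 CPM at ZT14, 119 and 105 CPM at ZT18 and 124 and 127 CPM at ZT22. The highest libraries were those of ZT06 and the lowest those of ZT18. Its range was 1.32-fold (least squares, 95% interval 1.14 to 1.52), with a peak at ZT 7.25 ± 0.888 h (SE; edgeR adjusted p = 0.0465). The call held in 3 of 12 fits without 1 library, those without ZT02 replicate 2, ZT10 replicate 1 or ZT14 replicate 2, with an edgeR adjusted p of up to 0.124 in the others. It was lost with total counts in place of TMM (edgeR adjusted p = 0.0597) and without either pair of ZT02 and ZT06 libraries (edgeR adjusted p = 0.0637 and 0.143).

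Nr0b2, the FXR-induced repressor SHP, was highest at ZT18 with 51.8 and 76.0 CPM, and had 58.2 and 31.1 CPM at ZT02, 25.3 and 31.4 CPM at ZT06, 33.8 and 30.3 CPM at ZT10, 28.4 and 24.0 CPM at ZT14 and 20.5 and 43.9 CPM at ZT22. The ZT18 libraries overlapped those of ZT02, and no test called it (edgeR adjusted p = 0.303 for the 24 h cosine and 0.141 for any time difference). Nr5a2, the activator LRH-1, was between 44.7 and 71.9 CPM in all libraries and was not called (24 h edgeR adjusted p = 0.499).

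Hnf4a, a nuclear receptor that activates many hepatocyte genes, was sharply higher at ZT10. Its levels were 533 and 567 CPM at ZT02, 565 and 540 CPM at ZT06, 933 and 907 CPM at ZT10, 778 and 678 CPM at ZT14, 620 and 607 CPM at ZT18 and 516 and 546 CPM at ZT22. Replicates nearly coincided and the ZT10 libraries stood above all others. The range was 1.61-fold (least squares, 95% interval 1.29 to 2.01) with a peak at ZT 11.8 ± 0.779 h (SE; edgeR adjusted p = 0.0149). The call held in all 12 fits without 1 library and without either pair of ZT02 and ZT06 libraries (edgeR adjusted p up to 0.0425).

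Klb, beta-Klotho, the partner of FGFR4 in the receptor for FGF15, was lower at night. It had 36.1 and 32.0 CPM at ZT14, 34.4 and 32.8 CPM at ZT18 and 31.8 and 39.8 CPM at ZT22, against 49.8 and 41.0 CPM at ZT02, 50.7 and 41.9 CPM at ZT06 and 62.5 and 45.0 CPM at ZT10. Every night library was under every day library. The difference was −0.49 ± 0.10 on the log2 scale (SE, edgeR adjusted p = 0.0173), a call lost without ZT18 replicate 1 or 2 or ZT22 replicate 1, where the edgeR adjusted p reached 0.0559. The 24 h call (edgeR adjusted p = 0.0396) held in 3 of 12 fits without 1 library, those without ZT06 replicate 2, ZT10 replicate 1 or ZT22 replicate 2, and not without either pair of ZT02 and ZT06 libraries (edgeR adjusted p = 0.084 and 0.056). Fgfr4 itself lay between 22.7 and 32.6 CPM and was not called (24 h edgeR adjusted p = 0.834, night minus day 0.02 ± 0.08 on the log2 scale, SE).

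Nr1i3, the xenobiotic receptor CAR, had the largest night difference among the regulators called. It measured 215, 232 and 258 CPM as lowest, median and highest in night libraries and 305, 398 and 561 CPM in day libraries, which did not overlap. Night was lower, with a difference of −0.86 ± 0.15 on the log2 scale (SE, edgeR adjusted p = 0.0084), and the call held in all 12 fits without 1 library and without either pair of ZT02 and ZT06 libraries. The 24 h peak was at ZT 5.69 ± 0.889 h (SE; edgeR adjusted p = 0.0161), a call lost without ZT02 replicate 1 and ZT06 replicate 2 together (edgeR adjusted p = 0.0659).

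Dbp, a clock-controlled activator, was lower at night, with a difference of −0.45 ± 0.08 on the log2 scale (SE, edgeR adjusted p = 0.00746). Its 24 h range was 1.80-fold (least squares, 95% interval 1.46 to 2.23; edgeR adjusted p = 0.00566). Both calls held in all 12 fits without 1 library. Ppara, the fatty acid receptor, was lower, with a difference of −0.52 ± 0.13 (edgeR adjusted p = 0.0355), and its coactivator Ppargc1a had a difference of −0.58 ± 0.13 on the log2 scale (SE, edgeR adjusted p = 0.0246). The night call of Ppara held in 2 of 12 fits without 1 library, those without ZT02 replicate 1 or ZT06 replicate 1 (edgeR adjusted p up to 0.1), and its 24 h call (edgeR adjusted p = 0.033) in 5 of 12, those without ZT02, ZT06 or ZT10 replicate 1 or a ZT22 library. Total counts in place of TMM ended both (edgeR adjusted p = 0.0541 for night and 0.0502 for the cosine). The call of Ppargc1a was lost without ZT02 replicate 2, ZT14 replicate 1, ZT18 replicate 1 or 2, or ZT22 replicate 2, where the edgeR adjusted p reached 0.0736, and without either pair of ZT02 and ZT06 libraries (edgeR adjusted p = 0.0792 and 0.0636).

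**Figure D5:**
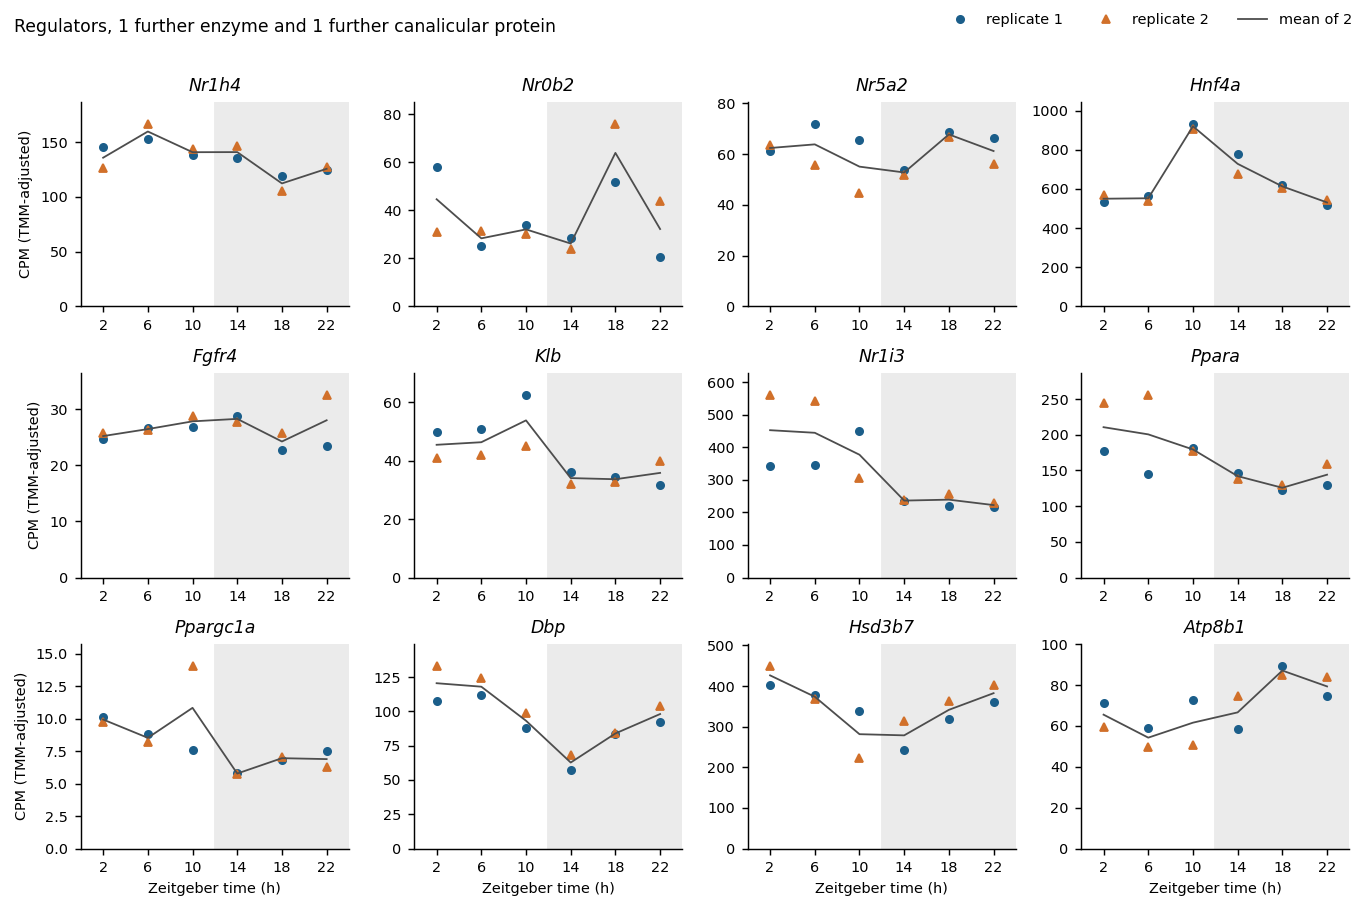
TMM-adjusted CPM (vertical axes, from 0) against zeitgeber time in hours for 10 regulators, the enzyme Hsd3b7 and the flippase Atp8b1, drawn like the plot of the 10 genes by time. Hnf4a peaks at ZT10, Klb and Nr1i3 are lower in every night library, and Nr0b2 is highest at ZT18.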

How the data were processed

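Per the labels' protocols, libraries were stranded and paired-end, from total RNA without rRNA. In the deposited table each value is an unnormalized exon count of 1 gene in 1 library. The submitters' processing notes name STAR 2.4.0i and mm10. Which program, strand setting and annotation made the counts is not given in the sources used here. Of 22618 identifiers, 22054 matched GENCODE M21, which gave positions.

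The fits used edgeR 4.0.16 in R 4.3.3, with TMM factors and quasi-likelihood tests, on genes that filterByExpr kept (minimum count 10, minimum total 15). Fits of the 6 times gave the test of any difference, night minus day and ZT14 minus ZT10, and cosine and sine terms with a period of 24 h gave the rhythm. A call is an adjusted p (Benjamini-Hochberg) under 0.05. For contrasts, SE was obtained as log2 difference over the square root of F. Ranges and peak times with their errors come from least-squares fits to log2 CPM (prior count 2, 9 residual degrees of freedom). A gene with no count in the shallowest library could be at up to 0.0864 CPM (3 counts, counting error only). DESeq2 1.42.0 and limma 3.58.1 were alternatives. The 4 edgeR tests were checked on simulated data. There the 2 tests over time and ZT14 minus ZT10 missed most changes of every size but the largest. A gene not called by these tests may therefore still vary with time. The share of false calls was above the 0.05 aimed at in each of the 4 tests, least so for night minus day and most for ZT14 minus ZT10.

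The 10 genes and the lists were chosen with earlier results of these data known. All 10 are named; of the other lists, genes called in the 24 h or night test, with Nr1h4, Nr0b2, Nr5a2, Fgfr4 and Klb, and the 5 genes most like Cyp7a1, passing over those named only by a clone or model. Slc10a2 and Slc51b were named after their values were seen.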

Additional observations from a re-analysis of the deposited data

Results flagged for a closer look

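Cyp7b1 in ZT10 replicate 1 stood apart from the other day libraries, at 548 CPM against a next highest day library of 230 CPM. The gap was 0.644 of the whole range of the 6 day libraries, above Dixon's 95% limit for 6 values. Each of the 10 genes was looked at in its 6 night and its 6 day libraries, 20 groups in all, and 1 was picked out; chance alone picks out about 1 in 20.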

How the results depend on the processing

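Without 1 library at a time, the 24 h test called 1229 to 2248 genes (2051 with all libraries) and 0 to 2 of the 10. The test of any time difference called 179 to 927 genes (826) and 0 to 2 of the 10, the night test 647 to 1864 (1662) and 0 to 3, and ZT14 minus ZT10 3 to 409 (211) and 0 to 0. These fits kept the genes tested with all libraries.

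DESeq2 called 3343 genes in the 24 h test, 2484 in the test of any difference and 626 for ZT14 minus ZT10, with 2 and 4 of the 10 in the tests over time. Of the 10, the 24 h test called 2 with total counts in place of TMM, and limma-voom called 1 in the test of any difference.

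Without ZT02 replicate 2 and ZT06 replicate 1 together, an alternative chosen after seeing the data, the 24 h test called 1342 genes and 0 of the 10, the test of any difference 0 of the 10, and the night test 892 genes. Without ZT02 replicate 1 and ZT06 replicate 2, likewise chosen, these were 615 genes and 0 of the 10 in the 24 h test, 1 of the 10 for any difference, and 317 genes for ZT14 minus ZT10. The cause of these differences was not tested.

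Replicate numbers did not pair the libraries across all times. Deviations from the time means correlated at −0.22 to 0.50 between times, over 0.1 in 5 of 15 pairs of times. The highest value, 0.50, was that of ZT02 with ZT06, whose libraries were alike by replicate number. With a replicate block, 1896, 774, 1609 and 215 genes were called in the 4 tests in the order above, and 1 of the 10 for any difference, the call of Cyp7a1 being lost (adjusted p = 0.0575, edgeR). No direction reversed among called values.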
